A study of Homo sapiens with 12 samples.

Results

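The HSP70 chaperone family was followed here through 10 genes of a count table of 54261 gene symbols: HSPA6, HSPA1A, HSPA1B, HSPA2, HSPA4, HSPA5, HSPA8, HSPA9, HSPA13 and HSPA14. They were taken by name from the table. The set was put together around HSPA6, which was selected on its high reads after lactate in these libraries, so that its lactate values are given as a description with no test. RNA was sequenced from SW480 and DLD1, which are 2 established lines of human colorectal cancer cells. The groups were SW480 with lactate, SW480 without lactate, DLD1 with lactate and DLD1 without lactate, with 3 libraries each that the submitters call biological replicates. The sources used here give neither the dose of lactate nor how long the cells were exposed to it. The 12 libraries held 12302311 to 22662063 counts each.

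HSP70 proteins bind short stretches of unfolded protein and release them in a cycle of ATP hydrolysis. J-domain proteins load the client and trigger hydrolysis, and nucleotide exchange factors reset the cycle. Some members are made all the time in 1 compartment each, such as HSPA8 in the cytosol, HSPA5 in the endoplasmic reticulum and HSPA9 in mitochondria, whereas HSPA1A, HSPA1B and HSPA6 are known for induction by heat and proteotoxic stress through the transcription factor HSF1. HSPA6 has no counterpart in mouse and is nearly silent in most unstressed human cells.

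The start-site regions of 4 members are shown because they carry the motifs by which these genes are usually sorted into heat-induced and endoplasmic-reticulum-induced members. Each is the 250 bases before the start site on the gene's own strand, from RefSeq on GRCh38.p14. Capitals mark heat shock elements in HSPA6, HSPA1B and HSPA8, found as GAANNTTC or TTCNNGAA, or both overlapping as a triplet. In HSPA5 they mark an endoplasmic reticulum stress element.
HSPA6 (chr1:161524290-161524539, plus strand): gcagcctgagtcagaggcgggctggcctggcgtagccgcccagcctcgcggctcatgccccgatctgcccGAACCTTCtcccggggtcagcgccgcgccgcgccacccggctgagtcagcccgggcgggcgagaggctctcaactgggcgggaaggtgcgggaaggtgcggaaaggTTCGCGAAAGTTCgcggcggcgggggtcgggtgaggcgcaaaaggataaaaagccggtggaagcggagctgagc
HSPA1B (chr6:31827488-31827737, plus strand): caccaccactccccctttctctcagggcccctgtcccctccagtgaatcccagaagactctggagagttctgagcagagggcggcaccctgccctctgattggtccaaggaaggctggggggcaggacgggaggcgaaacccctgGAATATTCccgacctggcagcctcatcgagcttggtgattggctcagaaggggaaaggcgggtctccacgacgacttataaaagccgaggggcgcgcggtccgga
HSPA8 (chr11:123062137-123062386, minus strand): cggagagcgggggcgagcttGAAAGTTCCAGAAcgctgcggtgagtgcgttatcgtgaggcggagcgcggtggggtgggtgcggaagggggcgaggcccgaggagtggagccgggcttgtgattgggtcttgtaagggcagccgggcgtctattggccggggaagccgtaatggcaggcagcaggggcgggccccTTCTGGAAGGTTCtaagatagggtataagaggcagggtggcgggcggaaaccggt
HSPA5 (chr9:125241344-125241593, minus strand): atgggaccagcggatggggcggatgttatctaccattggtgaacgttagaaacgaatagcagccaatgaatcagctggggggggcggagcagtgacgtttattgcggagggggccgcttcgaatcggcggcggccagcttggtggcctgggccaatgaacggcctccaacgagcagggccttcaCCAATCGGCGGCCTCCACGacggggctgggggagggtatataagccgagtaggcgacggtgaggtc
Both strands were searched over 300 bases, the 250 shown and 50 after the start site. The HSPA6 window held 3 element pairs, of which 2 overlapped as 1 triplet 62 to 74 bases before the start site. The HSPA8 window held 4 pairs in 2 triplets, and HSPA1A, HSPA1B and HSPA9 held 1 pair each and no triplet. A pair in either order was present in 13.5% of 35116 promoters of the same length, and a triplet in 0.490%. The endoplasmic reticulum stress element was found in the HSPA5 window and in 0.0769% of all promoters. No pair was found in the windows of HSPA2, HSPA4, HSPA5 and HSPA13. HSPA14 was not part of the search. These are matches of letters, not measured binding.

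Reads of close family members can be placed on more than 1 gene, so the coding sequences of the inducible members were compared. A stretch of 90 coding bases shows the spacing of the differences, with capitals in HSPA6 where it differs from HSPA1A. The sequences are from GENCODE 29 on GRCh38.
HSPA6 (chr1:161524755-161524844, plus strand): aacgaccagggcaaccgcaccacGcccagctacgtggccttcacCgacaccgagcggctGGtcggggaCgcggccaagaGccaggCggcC
HSPA1B (chr6:31828041-31828130, plus strand): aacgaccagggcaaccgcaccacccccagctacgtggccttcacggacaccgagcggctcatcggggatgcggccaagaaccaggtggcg
HSPA6 differed from HSPA1A at 8 of these 90 bases, and HSPA1B at 0. Over the whole coding sequence HSPA1A and HSPA1B differed at 4 of 1923 bases, and HSPA6 was 80.7% identical to HSPA1A. Of all windows of 100 bases, 69.9% of the HSPA1A transcript and 72.7% of the HSPA1B transcript occurred in another transcript, so counts of this pair are uncertain. For HSPA6 the share was 27.6%, all with HSPA7, a neighbouring pseudogene. It was 2.28% for HSPA5, 0.13% for HSPA9 and 0.0% for HSPA2, HSPA4, HSPA8, HSPA13 and HSPA14. HSPA6 also lies within a longer transcript on its own strand, AL590385.2, and HSPA2 overlaps the antisense gene AL049869.3. Whether the counting used strand is not stated in the sources at hand.

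Before the results, 2 features of the libraries need to be stated. The SW480-labelled libraries had almost no RNA of several genes that define colon epithelium. EPCAM, an epithelial adhesion protein, averaged 0.609 CPM (counts scaled to a library total of 1000000) in SW480 with lactate and 0.964 CPM in SW480 controls, against 671 and 701 CPM in DLD1 with and without lactate. CDX2, the intestinal transcription factor, averaged 0.0682 and 0.124 CPM in SW480 with and without lactate, against 179 and 138 CPM in DLD1 with and without lactate. The keratin gene KRT8 was present in both, at 908 and 1316 CPM in SW480 and 4200.4 and 3408 CPM in DLD1, each with lactate first. In the same order, the keratin gene KRT18 was at 474 and 738 CPM in SW480 and 2450 and 2170 CPM in DLD1. KRT19 was at 154 and 95.8 CPM in SW480 and 1757 and 1016 CPM in DLD1. CDH1 was at 1.28 and 1.45 CPM in SW480 and 837 and 695 CPM in DLD1. VIL1 was at 0.0855 and 0.0464 CPM in SW480 and 11.6 and 8.68 CPM in DLD1. The 8 epithelial markers summed to 1400.0 to 1665 CPM in SW480 with lactate and 1949 to 2298 CPM in SW480 controls, against 9473 to 10509 and 6479 to 9519 CPM in DLD1. LGALS4 was at 0 counts in all SW480 libraries and at 0 to 2 counts in the DLD1 libraries, so it does not separate the lines. The 5 fibroblast markers summed to 240.9 to 254 CPM in SW480 with lactate and 245 to 258 CPM in SW480 controls. Over the DLD1 libraries they summed to 4.96 to 6.30 CPM. In SW480 controls COL3A1 averaged 142.5 CPM, DCN 81.2 CPM, COL1A1 21.1 CPM, LUM 4.31 CPM and COL1A2 0.931 CPM. COL1A2 was similarly low in DLD1 controls, at 0.618 CPM. The 5 immune markers summed to 90.6 to 110.2 CPM in SW480 with lactate and 35.3 to 55.8 CPM in SW480 controls, with CD68 at 95.4 and 39.6 CPM and PTPRC at 0.157 and 0.0793 CPM. In DLD1 they summed to 10.8 to 13.5 CPM with lactate and 3.48 to 8.96 CPM in controls. The 4 endothelial markers summed to at most 0.878 CPM in SW480 and at most 4.46 CPM in DLD1. Apart from those of the keratins KRT8, KRT18 and KRT19, these levels go against the label of a colon epithelial line. The identity of the cells labelled SW480 was not tested, and SW480 stands below for the libraries so labelled, so that each difference between DLD1 and SW480 is one between libraries with those labels. The part of the marker differences in any HSP70 result was not tested. Second, DLD1 controls 2 and 3 stood apart from DLD1 control 1 in opposite directions along transcript GC content. Set against the other two of its group on the log2 scale, gene levels scattered with an SD of 0.537 in DLD1 control 2 and 0.443 in DLD1 control 3, against at most 0.262 in any other library. The DLD1 lactate fold changes sit on a slope, with Spearman's rho of 0.70 with GC content across 11762 genes, against 0.03 in SW480. Leaving out DLD1 control 2 gave 0.30 for DLD1, leaving out DLD1 control 3 gave 0.78 and leaving out both gave 0.56. The cause of the slope was not tested. In bulk libraries a change in the number of cells of a kind and in the RNA per cell cannot be told apart.

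HSPA6, the strictly inducible cytosolic member, was the gene with the most marked lactate difference of the family in both lines. In SW480 it had 35.7, 36.6 and 43.1 CPM in the lactate libraries, from 572, 708 and 606 counts, against 0.450, 0.325 and 0.405 CPM in the controls, from 7, 4 and 7 counts. In DLD1 it had 57.5, 39.8 and 29.9 CPM in the lactate libraries, from 950, 772 and 678 counts, against 0.695, 0.335 and 0.781 CPM in the controls, from 14, 5 and 15 counts. Lactate and control libraries were far apart in both lines, and the DLD1 lactate libraries differed among themselves by 1.92-fold, more than the 1.21-fold of the SW480 lactate libraries. The mean was 38.5 ± 4.07 CPM with lactate and 0.393 ± 0.0634 CPM without in SW480 (SD, n = 3 each), and 42.4 ± 14.0 CPM with lactate and 0.604 ± 0.237 CPM without in DLD1 (SD, n = 3 each). The fitted log2 fold change was 6.59 ± 0.31 in SW480, a 96.3-fold difference, and 6.04 ± 0.28 in DLD1, a 66.0-fold difference. By size HSPA6 ranked 1 of 17572 genes in SW480 and 2 of 17572 in DLD1. The controls had few counts, and the exact 95% interval for counting error alone ran from 60.4 to 162-fold in SW480 and from 46.7 to 94.7-fold in DLD1.

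**Figure D1:**
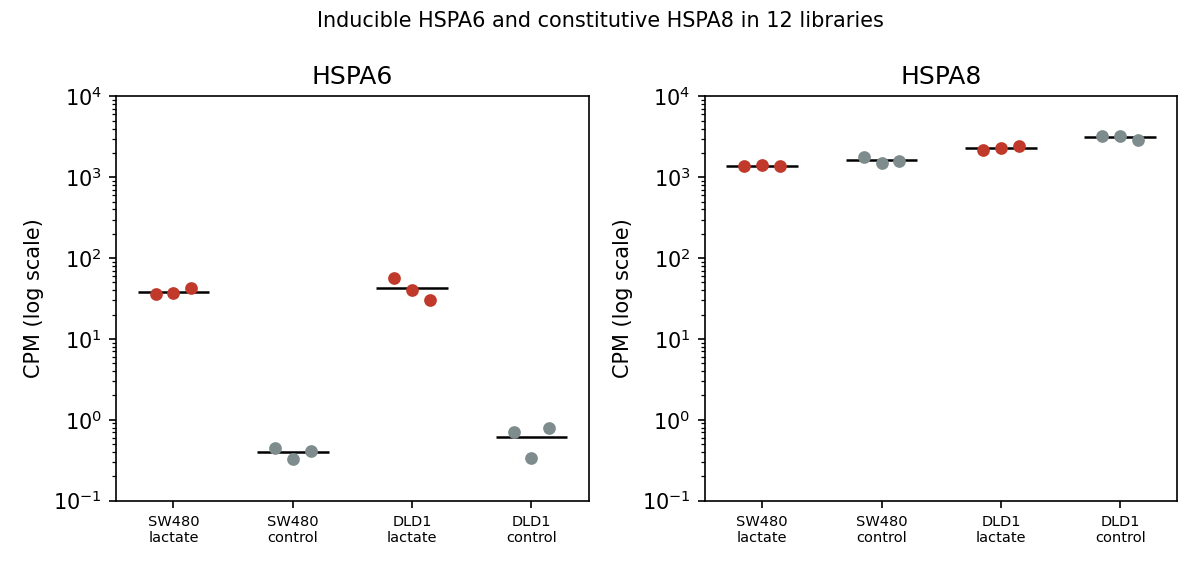
CPM per library on a log scale for HSPA6 and, for scale, the constitutive HSPA8, with lactate libraries in red, controls in grey and a line at the mean of 3 libraries. HSPA6 lies between 29.9 and 57.5 CPM in the 6 lactate libraries and below 1 CPM in the 6 controls, whereas HSPA8 is at 1370.1 CPM or higher throughout.

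The size of the HSPA6 difference is set side by side for the lines as a description, since the same libraries served to select the gene. The DLD1 effect minus the SW480 effect was −0.54 ± 0.54 on the log2 scale, and DLD1 controls minus SW480 controls came to 0.57 ± 0.51 (SE). Each of these differences was close in size to its SE, and both rest on 4 to 15 counts per control library.

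HSPA7 is the pseudogene neighbour that shares sequence with HSPA6. It had 2, 9 and 4 counts in the SW480 lactate libraries, against 0, 1 and 1 counts in the controls. The DLD1 libraries held 12, 7 and 6 counts with lactate, against 1, 5 and 2 counts in the controls. The ratio of summed counts, scaled to library totals, was 6.85 in SW480, with an exact 95% interval of 1.59 to 61.7, and 2.90 in DLD1, with an interval of 1.27 to 7.43. It was too low to enter the test, and how many of its reads came from HSPA6 was not tested.

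HSPA1A and HSPA1B encode the classical stress-inducible HSP70, nearly identical proteins from neighbouring genes of the major histocompatibility complex region. HSPA1A had 0, 1 and 2 counts in the SW480 lactate libraries and 1, 0 and 0 counts in the DLD1 lactate libraries, against 0 counts in all 6 controls. For reads placed on HSPA1A, a count of 0, with a limit of 3 counts over a group, allows up to 0.0665 CPM over the SW480 controls and 0.0553 CPM over the DLD1 controls, so no fold was computed. It does not limit HSPA1A RNA, since reads of sequence shared with HSPA1B may not have been placed on HSPA1A. HSPA1B had 24, 16 and 18 counts in SW480 with lactate, against 6, 5 and 21 counts in SW480 controls. DLD1 cells had 32, 24 and 58 counts with lactate, against 32, 22 and 37 counts in controls. Lactate and control libraries overlapped in both lines. The log2 fold change of HSPA1B was 0.79 ± 0.45 in SW480, with an adjusted p of 0.277, and 0.18 ± 0.37 in DLD1, with an adjusted p of 0.819. The SW480 value came to 1.60 without SW480 control 3, the control with 21 counts, and 0.50 was its lowest value when 1 library was left out. HSPA1B, which carries a heat shock element pair in its start-site window, averaged 1.202 ± 0.342 CPM in SW480 with lactate and 1.91 ± 0.661 CPM in DLD1 with lactate (SD, n = 3 each).

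Beside the HSPA6 difference stood the levels of the other members, of which 8 passed the filter on low counts and 1, HSPA1A, did not. In SW480, 1 of the 8 rose with lactate and 0 fell at an adjusted p under 0.05 in edgeR's quasi-likelihood test, where 6.83% of all genes tested rose and 5.59% fell. DESeq2 called 1 higher and 1 lower there, where it called 9.07% of all genes higher and 6.99% lower, and limma-voom called 1 higher, where it called 7.56% higher and 6.48% lower. At an unadjusted p under 0.05, 3 of the 8 were lower in SW480, against 13.3% of all genes, and HSPA2 was higher, against 14.0%. The median log2 fold change of the 8 was −0.17, with 5 of them negative, against a median of −0.01 over all genes. In DLD1, 0 of the 8 rose and 0 fell in that test, where 0.336% of all genes rose and 0.0455% fell. At an unadjusted p under 0.05, 5 of the 8 were lower, against 9.48% of all genes. DESeq2 called 4 of them lower, against 1.90% of all genes, and limma-voom 1, against 0.0512%. The median of the 8 in DLD1 was −0.32, with 6 of them negative, against 0.02 over all genes.

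The libraries of the 2 treatments did not overlap for several members. In SW480 HSPA2 was higher in all lactate libraries than in any control, and HSPA4, HSPA8, HSPA9 and HSPA14 were lower in all of them. Of all genes, 18.9% were higher and 21.9% lower without overlap in that line. In DLD1 HSPA4, HSPA5, HSPA8, HSPA9 and HSPA14 were lower in all lactate libraries than in any control, and 0 members were higher. Of all genes in DLD1, 10.7% were higher and 8.06% lower without overlap.

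HSPA8, the abundant constitutive cytosolic chaperone HSC70, had 1396.9, 1402 and 1370.1 CPM in the SW480 lactate libraries, against 1773, 1487 and 1597 CPM in the controls. In DLD1 it had 2158, 2324 and 2471 CPM in the lactate libraries, against 3230.5, 3240.7 and 2884 CPM in the controls. Every lactate library was below every control in both lines. The log2 fold change was −0.20 ± 0.10 in SW480, with an adjusted p of 0.221, and −0.45 ± 0.10 in DLD1, with an adjusted p of 0.0688. In DLD1 that was the smallest adjusted p of the 8, and it passed the threshold with no filter, with DESeq2, with limma-voom, with the GC and length trend removed, and without DLD1 control 2 or control 3, at values of −0.40 to −0.51. Without both, which leaves DLD1 control 1 alone in its group, the log2 fold change of HSPA8 was −0.51. Of its 2 heat shock triplets, shown above, the one nearer the start site has its blocks in the same order as that of HSPA6. The other has that order on the opposite strand.

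HSPA4, also called APG-2, belongs to the HSP110-like branch that acts as a nucleotide exchange factor for HSP70. It had 269.5, 281 and 309 CPM in SW480 with lactate, against 357, 318 and 349.5 CPM in SW480 controls. The DLD1 libraries held 282, 289.7 and 290.6 CPM with lactate, against 339, 395 and 303 CPM in controls. Its log2 fold change was −0.23 ± 0.11 in SW480, with an adjusted p of 0.173, and −0.29 ± 0.11 in DLD1, with an adjusted p of 0.182. HSPA4 was lower in every lactate library than in any control of its line, and was not called in the fit of all 12 libraries. In SW480 it was called with that line fitted alone and without DLD1 control 2, at adjusted p of 0.0247 and 0.0364. Those fits called 4783 of 15826 and 4347 of 18105 genes, against 2183 of 17572 in the fit of all 12 libraries.

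HSPA14, a ribosome-associated member, had 40.7, 40.1 and 43.4 CPM in SW480 with lactate, against 49.7, 48.9 and 53.0 CPM in SW480 controls. DLD1 cells had 81.8, 81.9 and 84.9 CPM with lactate, against 105, 114 and 89.5 CPM in controls. The lactate libraries were close together in both lines, and the DLD1 controls were spread. The log2 fold change was −0.26 ± 0.11 in SW480 and −0.34 ± 0.10 in DLD1, with adjusted p of 0.119 and 0.1495. In SW480 HSPA14 was called with that line fitted alone, at an adjusted p of 0.0179. It was also called there without DLD1 control 2 or 3, at 0.0305 and 0.0416, and the fit without control 3 called 3095 of 18063 genes.

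HSPA2, best known from the testis, where it is needed for sperm formation, was the member that rose in SW480. It had 8.48, 9.82 and 12.4 CPM in the lactate libraries, against 6.05, 6.18 and 6.48 CPM in the controls. Its log2 fold change was 0.73 ± 0.20, with an adjusted p of 0.0269. The call did not survive the loss of 1 library in 5 of 12 cases, with adjusted p of 0.0713 to 0.120 without SW480 lactate 2 or 3 or any 1 of the 3 SW480 controls. In DLD1 HSPA2 had 3.33, 3.30 and 4.06 CPM with lactate, against 2.58, 2.48 and 4.22 CPM in controls, and its log2 fold change was 0.18 ± 0.22 with an adjusted p of 0.666. The antisense gene overlapping HSPA2 was not separated from it.

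HSPA5, the endoplasmic reticulum chaperone BiP and the usual readout of the unfolded protein response, had 1770.0, 1952 and 1748 CPM in SW480 with lactate, against 2101, 1946 and 2104 CPM in SW480 controls. In DLD1 it had 675, 689 and 679 CPM with lactate, against 838, 890.5 and 786 CPM in controls. The SW480 groups overlapped and the DLD1 groups did not. The log2 fold change was −0.14 ± 0.09 in SW480, with an adjusted p of 0.338, and −0.32 ± 0.09 in DLD1, with an adjusted p of 0.135.

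HSPA9, the mitochondrial chaperone mortalin, had 847, 845 and 926 CPM in SW480 with lactate, against 1109.7, 1029 and 1052 CPM in SW480 controls. The DLD1 libraries held 602, 633 and 628 CPM with lactate, against 767, 835 and 687 CPM in controls. The log2 fold change was −0.26 ± 0.09 in SW480 and −0.32 ± 0.09 in DLD1, with adjusted p of 0.0825 and 0.140. Lactate libraries were below controls in both lines. Neither line passed edgeR's test on all 12 libraries, whereas DESeq2 called HSPA9 lower in both, with adjusted p of 0.0469 in SW480 and 0.0137 in DLD1. In SW480 edgeR called HSPA9 with that line fitted alone, at an adjusted p of 0.0142. It was also called there without DLD1 control 2 or 3, at 0.0171 and 0.0342.

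HSPA13, the microsomal member STCH, had 93.6, 97.0 and 113.6 CPM in SW480 with lactate, against 89.8, 92.5 and 94.2 CPM in SW480 controls. DLD1 cells had 61.6, 58.7 and 56.3 CPM with lactate, against 68.4, 103 and 53.2 CPM in controls. The high value was DLD1 control 2 and the low one DLD1 control 3, the libraries that stood apart along GC content, and HSPA13 has the lowest transcript GC content of the 10 members, 34.9%. Its log2 fold change was 0.16 ± 0.18 in SW480 and −0.37 ± 0.18 in DLD1, with adjusted p of 0.605 and 0.276. Once the GC and length trend was taken out the DLD1 value was −0.01.

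**Figure D2:**
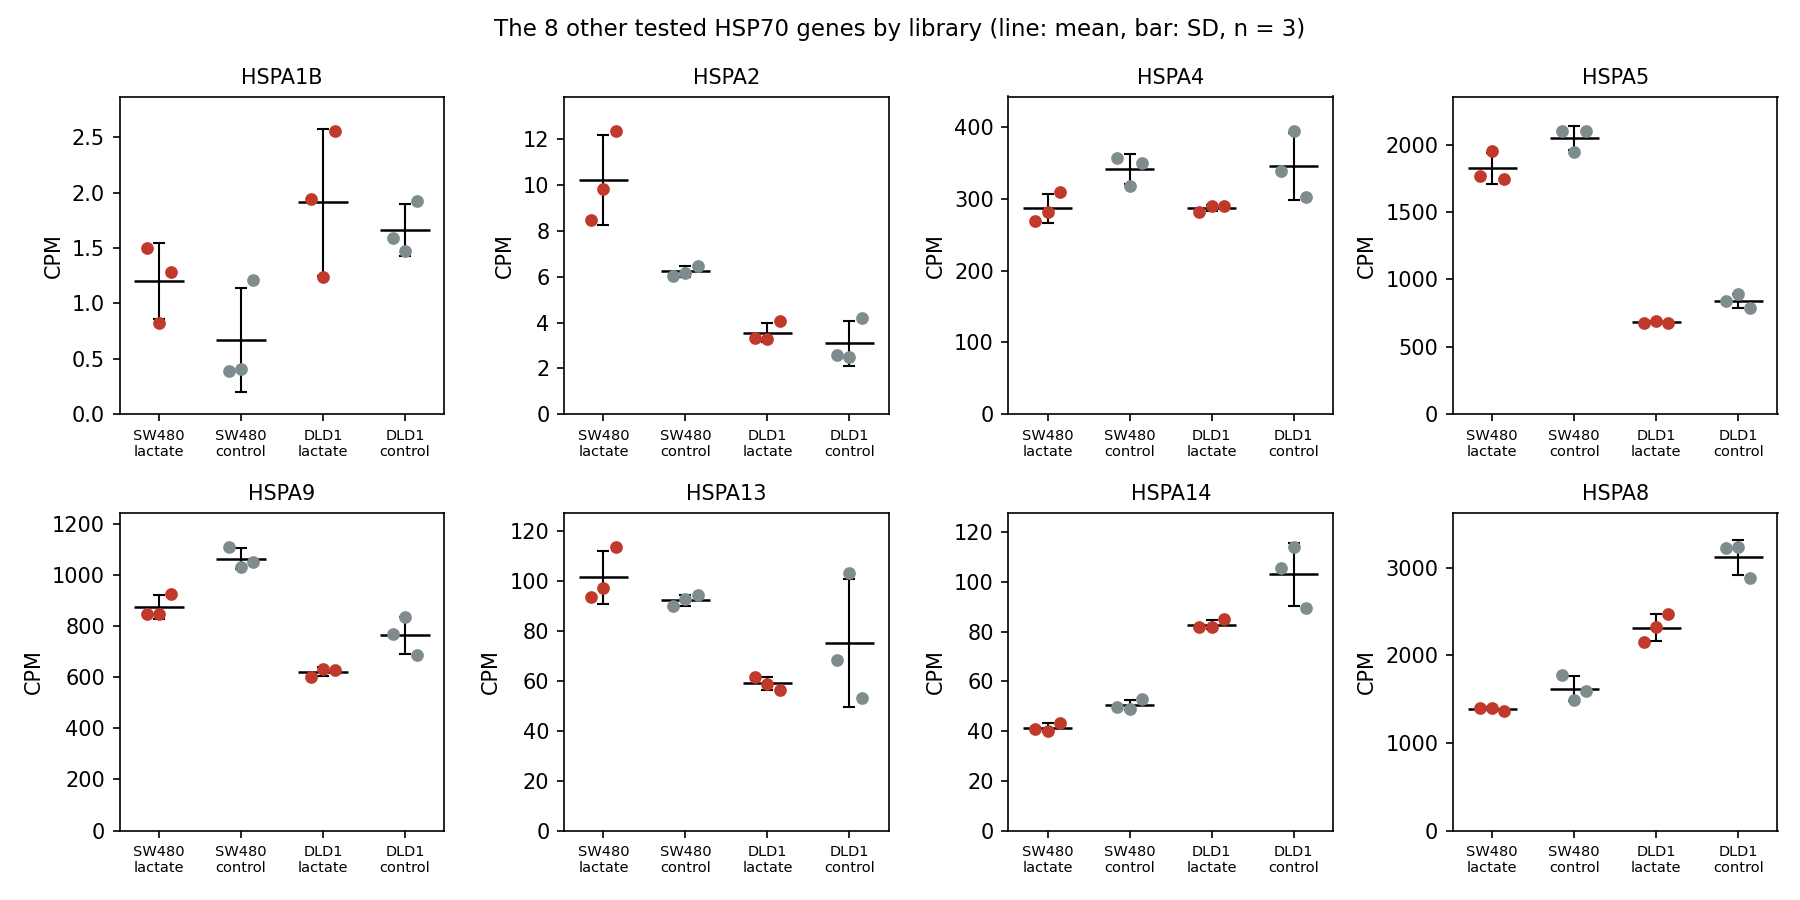
CPM per library for the 8 other members that passed the filter, each on its own axis from 0, with lactate libraries in red, controls in grey, a line at the mean and a bar of 1 SD (n = 3). HSPA2 is higher in all SW480 lactate libraries, and HSPA4, HSPA8, HSPA9 and HSPA14 lie lower with lactate in both lines.

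The GC slope of the DLD1 libraries was set beside these values. Genes within 3 percentage points of GC content of a member had median DLD1 fold changes of −0.06 for HSPA8, −0.08 for HSPA5, −0.15 for HSPA9, −0.16 for HSPA14, −0.17 for HSPA4 and −0.32 for HSPA13 on the log2 scale. For the GC-rich HSPA1B and HSPA2 the medians were 0.21 and 0.16, beside their own DLD1 values of 0.18 each. In SW480 the 8 medians lay between −0.03 and 0.00. With the trend along GC content and length removed in each library, 3 members fell in DLD1, namely HSPA8 by 0.40, HSPA5 by 0.28 and HSPA14 by 0.24, with adjusted p of 0.00739, 0.0347 and 0.0328, where 1.82% of all genes rose and 1.37% fell. In SW480, 3 fell in that fit, HSPA9 by 0.28, HSPA14 by 0.27 and HSPA4 by 0.25, with adjusted p of 0.00187, 0.00370 and 0.00311, and HSPA2 rose, where 14.5% of all genes fell and 13.6% rose. Without DLD1 control 3, 6 members fell in DLD1, HSPA8, HSPA9, HSPA14, HSPA5, HSPA4 and HSPA13, where 10.4% of all genes rose and 10.6% fell. Without DLD1 control 2 it was 1 member, HSPA8, where 0.707% rose and 0.116% fell, and without both it was HSPA8 and HSPA14, where 1.74% rose and 1.36% fell.

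**Figure D3:**
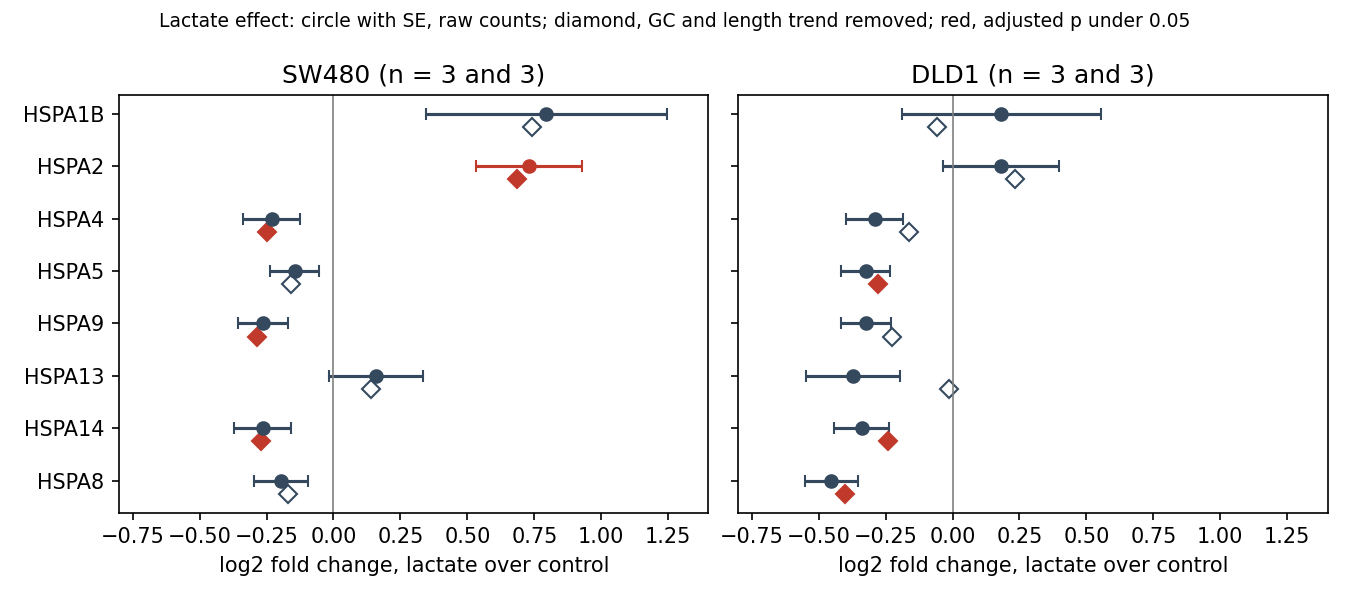
Log2 fold change of lactate over control for 8 members in SW480 and DLD1, as circles with the SE from edgeR and as diamonds from the fit without the trend along GC content and length, red where the adjusted p was under 0.05. All fold changes of HSPA4, HSPA5, HSPA8, HSPA9 and HSPA14 are below 0 in both lines and both fits.

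The lactate effects of the 2 lines were then compared gene by gene. Of the 8 members tested other than HSPA6, 0 differed between the lines in edgeR's quasi-likelihood test, where 0.728% of all genes did. An unadjusted p under 0.05 was reached by 0 of them, against 16.8% of all genes, and DESeq2 and limma-voom called 0, against 4.05% and 0.541%. The DLD1 minus SW480 difference was between −0.61 and −0.06 on the log2 scale for the 8, negative for each. For HSPA4, HSPA9 and HSPA14 the sign turned with the trend removed or without DLD1 control 2. The lowest adjusted p was 0.299, for HSPA13, which was called at 0.0268 without DLD1 control 3, where 8.35% of all genes were called.

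The balance of the family was described per length, as CPM per kilobase of transcript. HSPA8 was the highest member in every group, at 564 ± 6.92 in SW480 with lactate, 657 ± 58.5 in SW480 controls, 941 ± 63.5 in DLD1 with lactate and 1266 ± 82.4 in DLD1 controls (SD, n = 3 each). HSPA5, HSPA9 and HSPA4 followed in that order in all 4 groups, and no neighbours among these overlapped. HSPA6 was at 16.2 ± 1.72 in SW480 with lactate, below HSPA14 at 21.8 and above HSPA2 at 3.70, whereas in SW480 controls it was at 0.166 ± 0.0267 and overlapped HSPA1B at 0.265. In DLD1 with lactate HSPA6 was at 17.9 ± 5.90 and overlapped HSPA13 at 14.8, whereas in DLD1 controls it was at 0.255 ± 0.0998, below HSPA1B at 0.660. HSPA6 ranked 7 of the 10 genes in SW480 with lactate and 6 in DLD1 with lactate, against 9 in the controls of both lines. Levels per length were not corrected for sequence shared between transcripts, so the order of HSPA6 against HSPA1A and HSPA1B is uncertain. Per length, HSPA8 was still 34.8 times as abundant as HSPA6 in SW480 with lactate and 52.6 times in DLD1 with lactate.

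In summed CPM, the family was not more abundant with lactate. Its 10 genes summed to 4565 ± 100.2 CPM in SW480 with lactate and 5224 ± 281 CPM in SW480 controls, and to 4097 ± 163 CPM in DLD1 with lactate and 5249 ± 397 CPM in DLD1 controls (SD, n = 3 each). The highest lactate library of a line lay below its lowest control, at 4664 against 4929 CPM in SW480 and at 4247 against 4810.2 CPM in DLD1. HSPA6 added 38.1 CPM in SW480 and 41.8 CPM in DLD1, while the sum of the other 9 differed by −697 CPM in SW480 and by −1194 CPM in DLD1. HSPA6 made up 1.21% ± 0.131 of the family's counts per length in SW480 with lactate and 0.0108% ± 0.00113 in controls, and 1.31% ± 0.490 in DLD1 with lactate and 0.0145% ± 0.00642 in controls (SD, n = 3 each). These sums and shares take HSPA1A and HSPA1B as counted, which is uncertain for this pair because of its shared sequence. They rest mostly on HSPA8, HSPA5 and HSPA9, and were not corrected for the GC slope in DLD1.

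**Figure D4:**
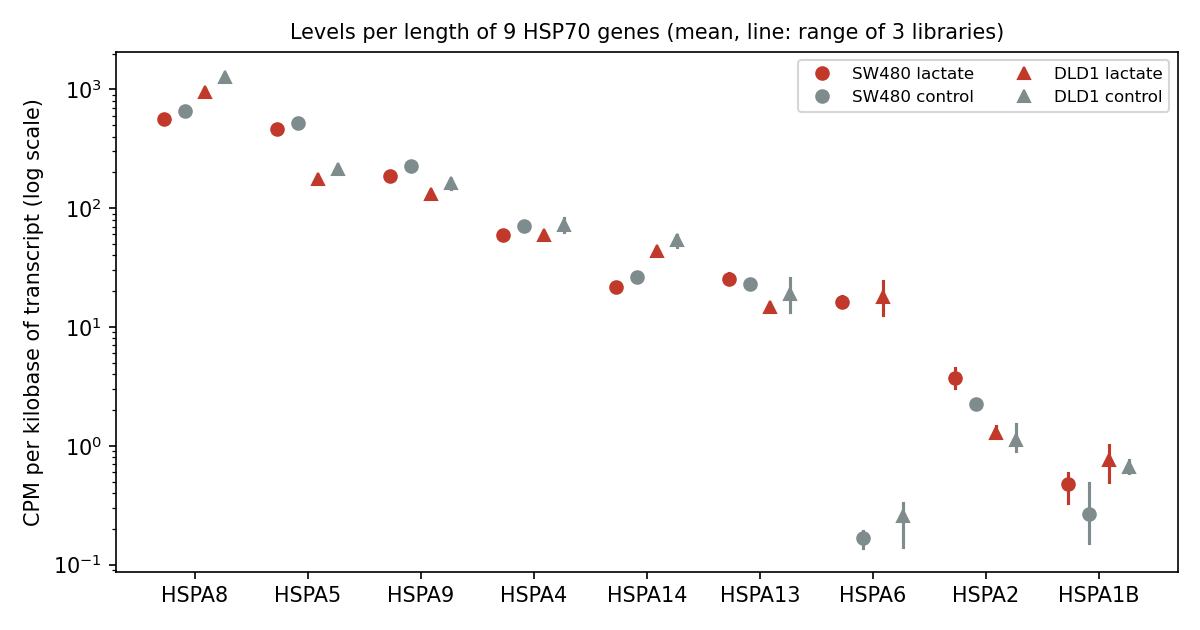
CPM per kilobase of transcript on a log scale for 9 members (HSPA1A, at 0 to 2 counts, is left out), with the mean of each group as a symbol and the range of its 3 libraries as a line. HSPA6 is the member whose lactate and control groups are far apart, and HSPA8 and HSPA5 are farther apart in DLD1 than in SW480.

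The DLD1 and SW480 controls had different family profiles. In edgeR's quasi-likelihood test 3 of the 8 members tested other than HSPA6 were higher in DLD1 controls than in SW480 controls and 3 were lower, where 33.6% of all genes were higher and 37.3% lower. HSPA14 was higher in DLD1, at 103 ± 12.5 CPM against 50.5 ± 2.16 CPM in SW480, a log2 difference of 0.96 ± 0.10 with an adjusted p of 9.59e-07. HSPA8 was higher, at 3118 ± 203 CPM in DLD1 against 1619 ± 144 CPM in SW480, by 0.88 ± 0.10 with an adjusted p of 1.51e-06. HSPA1B was higher, at 1.66 ± 0.236 CPM in DLD1 against 0.669 ± 0.473 CPM in SW480, by 1.19 ± 0.43 with an adjusted p of 0.0223. That call was lost without SW480 control 1 or 2 or DLD1 control 3, at adjusted p of 0.0531 to 0.1004.

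HSPA5 was lower in DLD1 controls, at 838 ± 52.1 CPM against 2051 ± 90.3 CPM in SW480 controls, a log2 difference of −1.35 ± 0.09 with an adjusted p of 5.37e-09. HSPA2 was lower, at 3.09 ± 0.976 CPM in DLD1 against 6.23 ± 0.221 CPM in SW480, by −1.07 ± 0.21 with an adjusted p of 3.83e-04. HSPA9 was lower, at 763 ± 73.8 CPM in DLD1 against 1064 ± 41.5 CPM in SW480, by −0.54 ± 0.09 with an adjusted p of 1.10e-04. HSPA8 and HSPA5 therefore took 70.8% and 12.002% of the family's counts per length in DLD1 controls, against 42.9% and 34.3% in SW480 controls. HSPA4 and HSPA13 were not called, with log2 differences of −0.05 ± 0.11 and −0.36 ± 0.18 and adjusted p of 0.706 and 0.0786. HSPA13 was called lower with no filter, with limma-voom, with the trend removed and without DLD1 control 2. The 6 of 8 members called are close to the share of all genes called in either direction.

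The partners of HSP70 were followed as lists. Of 40 J-domain co-chaperones tested, 3 rose and 3 fell with lactate in SW480, close to the 6.83% and 5.59% of all genes, and 0 rose and 0 fell in DLD1, where 0.336% and 0.0455% of all genes did. In DLD1 1 was higher and 14 were lower at an unadjusted p under 0.05, against 9.04% and 9.48% of all genes. DESeq2 called 1 higher and 5 lower there, against 1.99% and 1.90%, and limma-voom 0. In SW480 4 were higher and 9 lower at an unadjusted p under 0.05, against 14.0% and 13.3% of all genes. DESeq2 called 4 higher and 5 lower in SW480, against 9.07% and 6.99%, and limma-voom 3 and 4, against 7.56% and 6.48%. These shares of all genes are the ones to set beside the counts of the lists that follow. The median log2 fold change of the list was −0.08 in SW480 and −0.18 in DLD1. DNAJB5, a cytosolic member, rose by 1.21 ± 0.25 in SW480, at 11.7 ± 1.47 CPM with lactate and 5.21 ± 2.17 CPM without (SD, n = 3 each), with an adjusted p of 0.00717. DNAJB2, known from neurons, rose by 0.74 ± 0.13 with an adjusted p of 0.00300. DNAJB11, the partner of HSPA5 in the endoplasmic reticulum, fell by 0.53 ± 0.09 with an adjusted p of 0.00204. DNAJC15, a mitochondrial inner membrane protein, fell by 0.45 ± 0.10 with an adjusted p of 0.00911. The calls of DNAJB5 and DNAJC15 were lost without SW480 control 1. DNAJB1, the usual cytosolic partner of inducible HSP70 and itself induced by HSF1, had 82.0, 78.0 and 78.8 CPM in SW480 with lactate, against 103, 91.0 and 96.6 CPM in SW480 controls. In DLD1 it had 199, 195 and 202 CPM with lactate, against 175, 158 and 204 CPM in controls. Its log2 fold change was −0.26 ± 0.10 in SW480 and 0.13 ± 0.10 in DLD1, with adjusted p of 0.105 and 0.484, and the SW480 value was called with the trend removed, with SW480 fitted alone and without DLD1 control 2, control 3 or both.

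Of 14 genes for nucleotide exchange and client handover, 0 rose and 3 fell in SW480, and 0 changed in DLD1, where 3 were lower at an unadjusted p under 0.05, 2 by DESeq2 and 0 by limma-voom. In SW480 0 were higher and 5 lower at an unadjusted p under 0.05, against 14.0% and 13.3% of all genes. DESeq2 and limma-voom each called 0 higher and 3 lower there. On the lower side they called 6.99% and 6.48% of all genes. BAG2, an exchange factor that inhibits client ubiquitination, fell by 0.59 ± 0.14 with an adjusted p of 0.0137. BAG1, which links HSP70 to the proteasome, fell by 0.37 ± 0.10 with an adjusted p of 0.0210. STIP1, the adaptor between HSP70 and HSP90, fell by 0.27 ± 0.08 with an adjusted p of 0.0469. When 1 library was left out, STIP1 was called in 2 of 12 fits, those without DLD1 control 2 or 3, and it was not called with no filter or with median-of-ratios scaling, at adjusted p of 0.195 and 0.0638. BAG1 lost its call with no filter, at an adjusted p of 0.0598, and without SW480 control 1 or 3 or any SW480 lactate library, and BAG2 without SW480 control 1 or SW480 lactate 2. BAG3, an HSF1 target that steers HSP70 clients to autophagy, had log2 fold changes of −0.01 ± 0.14 in SW480 and 0.29 ± 0.14 in DLD1, with adjusted p of 0.976 and 0.298. The DLD1 value of BAG3 was called without DLD1 control 3, at 0.47. The HSP110 gene HSPH1 had −0.23 ± 0.12 and −0.38 ± 0.12 in SW480 and DLD1, with adjusted p of 0.211 and 0.1495. HSPH1 was called lower in SW480 with the trend removed, with SW480 fitted alone and without DLD1 control 2 or both, and in DLD1 by DESeq2 and without DLD1 control 3. Of the 4 tested HSP70-like genes outside the 10 members, HSPH1, HSPA4L, HSPA12A and HYOU1, 0 rose and 0 fell in either line. At an unadjusted p under 0.05, 1 was lower in SW480 and 2 in DLD1, and DESeq2 called 1 of them lower in DLD1.

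The factors that drive the heat shock response were measured too. HSF1, the main factor, averaged 38.2 ± 2.51 CPM in SW480 with lactate and 38.6 ± 1.43 CPM in SW480 controls, and 54.0 ± 7.16 CPM in DLD1 with lactate and 42.0 ± 18.1 CPM in DLD1 controls (SD, n = 3 each). Its log2 fold change was 0.01 ± 0.22 and 0.34 ± 0.22, and that of HSF2, a second factor, was 0.15 ± 0.13 and −0.30 ± 0.13 in SW480 and DLD1. None of the 4 values passed the test, with adjusted p of 0.987 and 0.393 for HSF1 and 0.513 and 0.246 for HSF2, and without DLD1 control 3 both were called in DLD1, HSF1 at 0.71 and HSF2 at −0.43. Of 5 factors and regulators tested, 1 rose in SW480, HSF2BP, an HSF2-binding protein of meiotic recombination, by 0.73 ± 0.20 with an adjusted p of 0.0258. That call was lost without SW480 lactate 2 or any SW480 control. In DLD1 0 changed in edgeR, DESeq2 or limma-voom, and 2 were lower at an unadjusted p under 0.05. HSF1 is regulated largely by its protein state, which RNA does not measure.

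Of 19 known HSF1 targets outside HSP70, 1 rose and 5 fell in SW480, where 6.83% of all genes rose and 5.59% fell, and 1 rose and 0 fell in DLD1, where 0.336% rose and 0.0455% fell. In DLD1 7 were lower at an unadjusted p under 0.05, against 9.48% of all genes, 4 by DESeq2, against 1.90%, and 0 by limma-voom. In SW480 2 were higher and 9 lower at an unadjusted p under 0.05, against 14.0% and 13.3% of all genes. DESeq2 and limma-voom each called 1 higher and 6 lower in SW480. On the lower side they called 6.99% and 6.48% of all genes, and on the higher side 9.07% and 7.56%. The list's median log2 fold change was −0.21 in SW480 and −0.18 in DLD1. CRYAB, the small heat shock protein αB-crystallin, was the one that rose in each line. In SW480 it had 46, 71 and 40 counts with lactate, against 7, 12 and 13 counts in controls, a log2 fold change of 2.15 ± 0.39 with an adjusted p of 0.00310. The DLD1 libraries held 80, 66 and 38 counts with lactate, against 1, 1 and 1 counts in controls. The DLD1 ratio of summed counts, scaled to library totals, was 56.8, with an exact 95% interval of 19.1 to 278, and the adjusted p was 5.71e-04. Fitted on the DLD1 libraries alone it was 0.0537, and DESeq2 gave it no adjusted p in DLD1. With so few control counts, CRYAB passed the filter on low counts mainly through its lactate libraries. The list was also chosen with earlier results of these data known, so the p-values of CRYAB are no independent support. HSPB1, the other well-known small heat shock protein, had 0.10 ± 0.27 and 0.56 ± 0.27 in SW480 and DLD1, with adjusted p of 0.855 and 0.279. Its DLD1 value ran from 0.22 to 0.92 when 1 library was left out, and it was called without DLD1 control 3 and with no filter. The mitochondrial chaperonin genes HSPD1 and HSPE1 fell in SW480. HSPD1 fell by 0.63 ± 0.12 and HSPE1 fell by 1.003 ± 0.23, with adjusted p of 0.00489 and 0.0117. AHSA1, the activator of HSP90, fell by 0.36 ± 0.09 with an adjusted p of 0.0187. HSPE1 lost its call without SW480 control 1 or SW480 lactate 3, and AHSA1 without SW480 control 1 or 3 or any SW480 lactate library, and with no filter, at an adjusted p of 0.0538. HSPD1 had 492, 494 and 506 CPM in SW480 with lactate, against 837, 699.7 and 817 CPM in controls. In DLD1 edgeR's test called CRYAB alone of these 5. HSPD1 was called lower there by DESeq2, with no filter, and without DLD1 control 3, and AHSA1 with the trend removed.

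**Figure D5:**
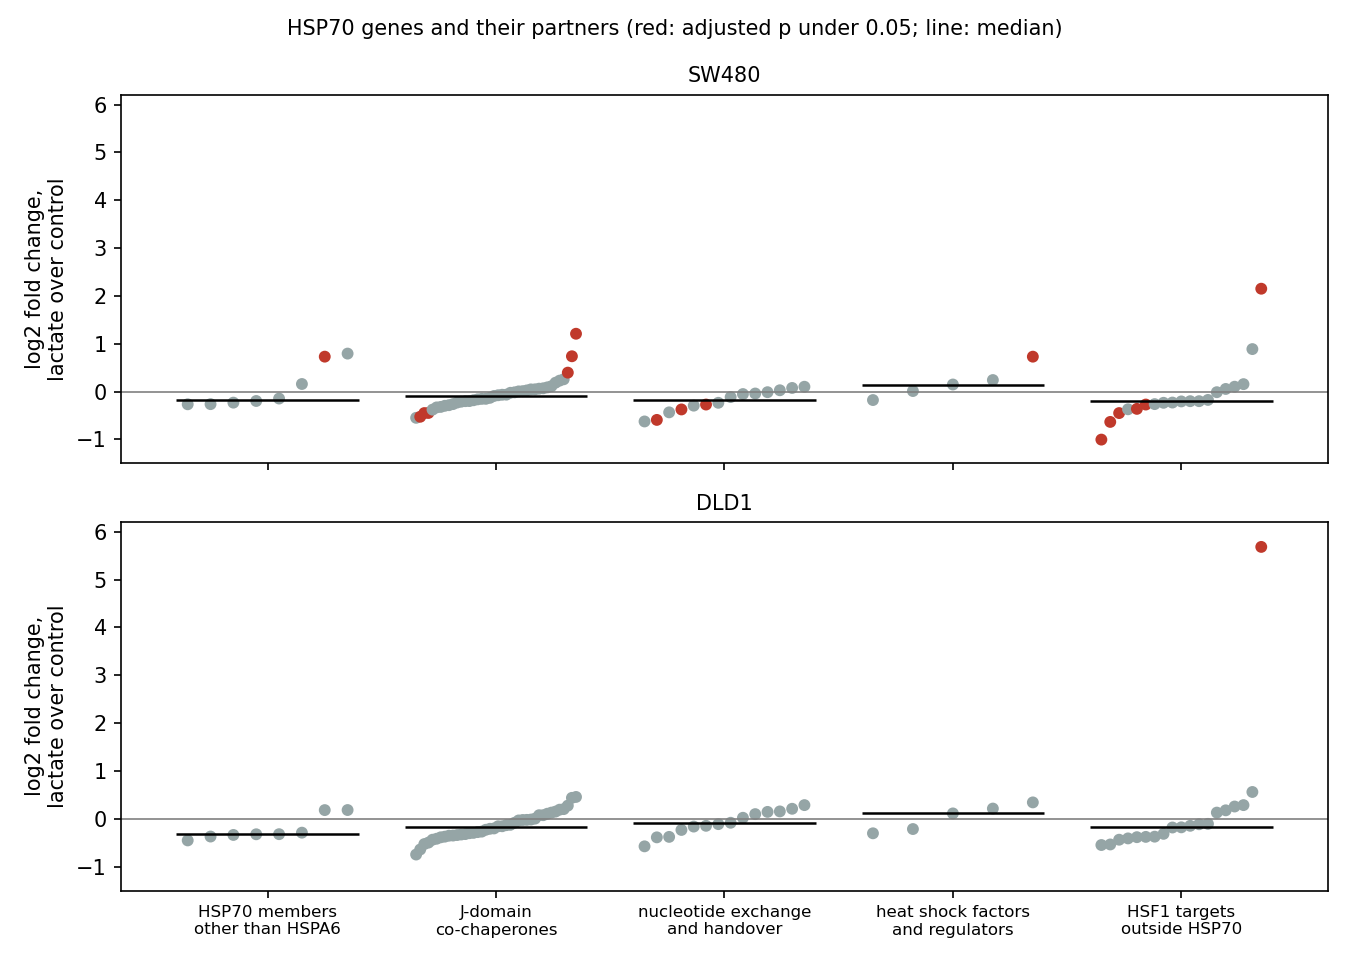
Log2 fold change of lactate over control in SW480 (top) and DLD1 (bottom) for each tested gene of 5 groups, ordered by value within a group, red where the adjusted p was under 0.05, with a line at the median. CRYAB is the point at 2.15 in SW480 and at 5.68 in DLD1, and the medians of 4 of the 5 groups lie below 0 in both lines.

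The genes whose pattern was most like that of HSPA6 were sought by Pearson's r of log2 CPM across the 12 libraries, over 17563 other genes. The 4 highest were TEP1, a telomerase-associated protein, with 0.95, SEC14L1 with 0.93, DNMBP with 0.92 and TLDC1 with 0.92. The 12 points fall in 4 groups, so r mostly follows the step between lactate and control, and within the 6 lactate libraries these r were 0.04 to 0.48. TEP1 had 46.7, 48.8 and 48.5 CPM in SW480 with lactate, against 31.6, 35.5 and 34.5 CPM in SW480 controls. DLD1 cells had 52.4, 52.8 and 49.6 CPM with lactate, against 37.9, 40.5 and 38.2 CPM in controls. Its log2 fold change was 0.53 ± 0.09 in SW480 and 0.38 ± 0.09 in DLD1. No p is given for it, since TEP1 was picked for following HSPA6 in these same libraries. The 4 genes had SW480 log2 fold changes of 0.37 to 0.56, so that likeness here is of shape and not of size. Ranked by Spearman's rho, 0 of these 4 were among the first 4, and leaving out 1 library kept 2 or 3 of them there. Among the members HSPA1B had the highest r with HSPA6, 0.40, and HSPA4 the lowest, −0.80.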

How the data were processed

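The authors deposited raw read counts as whole numbers, with a row for each gene symbol and a column for each library, of which 0 stayed unused. HISAT2 and the build GRCh38 are named in the submitters' processing notes. The tool that counted reads and its annotation and strand use were not stated there. Genes with enough counts by edgeR's filterByExpr (17572 of 54261) were fitted in edgeR 4.0.16 (R 4.3.3) with TMM scaling, robust quasi-likelihood and 1 mean per group over all 12 libraries. P-values were adjusted over all tested genes (Benjamini-Hochberg), and a call is an adjusted p under 0.05. SE is the absolute log2 fold change divided by the root of F. Levels are CPM of the library total.

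All 10 members, HSPA7, 6 heat shock genes, up to 4 called genes of each partner list with the smallest p, and 4 of the 5 genes most like HSPA6 (log2 CPM, prior count 2) were named. The other one is not reported here. The members and lists were chosen with earlier results of these data known. HSPA6 was fitted with the rest, but no p of it is given, since these libraries served to select it. With 3 libraries a group, p-values measure the spread between these libraries.

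Same-numbered libraries correlated at −0.07 to 0.17, so numbers were not taken as pairs. On data simulated for lactate in SW480 with 16921 genes tested, 53.7% of genes changed 1.5-fold, 97.0% changed 2-fold and 100% changed 4-fold were recovered. The changed genes were drawn from well-counted genes, and the simulated spread followed a smooth trend with count level. These shares therefore do not cover genes with few counts, such as HSPA1B, or the spread of the DLD1 controls. Alternatives used limma 3.58.1 and DESeq2 1.42.0. GC content from GENCODE 29 was known for 85.6% of tested genes. Intervals cover counting error only.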

Additional observations from a re-analysis of the deposited data

How the results depend on the processing

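The HSPA6 log2 fold change lay between 6.45 and 6.69 in SW480 and between 5.75 and 6.24 in DLD1 over all alternatives. Calls among the other 9 members were 1 for lactate in SW480 but 2 with DESeq2, 4 once the trend along GC content and length was removed, 4 with each line fitted alone, 4 without both DLD1 controls 2 and 3 (an alternative chosen after seeing the data), and 0 to 4 leaving out 1 library. For lactate in DLD1 calls numbered 0, but 1 with no filter, 4 with DESeq2, 1 with limma-voom, 3 with the trend removed, and 0 to 6 leaving out 1 library. The fit without both DLD1 controls keeps DLD1 control 1 alone in its group, so its DLD1 calls are not counted. Over all genes, DLD1 calls numbered 67, against 1 with DLD1 alone, 855 with no filter, 683 with DESeq2, 184 with the replicate block and 3 to 3791 leaving out 1 library. In SW480 2183 genes were called, against 4950 with the trend removed, 4783 with SW480 alone and 689 to 4347 leaving out 1 library. For the difference of the lactate effects, 0 members were called, and 0 to 1 leaving out 1 library. For DLD1 control against SW480 control, 6 were called, and 5 to 7 under the alternatives. With the replicate block as a paired fit the first 3 counts were 1, 0 and 0, and no member's lactate call changed. Between the control lines that fit compares the fitted levels of replicate 1 and not group means. There it called 5 members, with HSPA1B at an adjusted p of 0.0564, which is not a paired form of the main comparison. Of the partners, STIP1 lost its SW480 call in that fit (adjusted p 0.0940). Of the 4 genes most like HSPA6, 0 stayed among the first 4 with Spearman and 2 to 3 leaving out 1 library.

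Signs turned as follows, all for values not called, and the cause was not tested. With the trend removed, the difference between lines was 0.085 (HSPA4), 0.060 (HSPA9) and 0.031 (HSPA14), HSPA4 between control lines was 0.075, HSF1 in SW480 was −0.040, and in DLD1 HSPA1B was −0.057, DNAJB5 −0.057, BAG1 −0.17 and HYOU1 −0.10. BAG3 in SW480 was 0.0053 with median-of-ratios scaling and 0.0053 with DESeq2. Leaving out both DLD1 controls gave BAG1 −0.021, HSF2BP −0.064 and HSPA12A 0.028 in DLD1. Leaving out 1 library gave ranges of −0.021 to 0.091 for HSF1 and −0.064 to 0.052 for BAG3 in SW480. In DLD1 they were −0.11 to 0.42 for HSPA1B, −0.094 to 0.36 for DNAJB5 and −0.043 to 0.072 for BAG1. For the difference between lines they were −0.15 to 0.052 for HSPA4, −0.14 to 0.014 for HSPA9 and −0.17 to 0.011 for HSPA14, and for HSPA4 between control lines −0.15 to 0.053. Counts of 4 to 37 per control library limit HSPA6 and HSPA1B.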

Other observations

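In the 3 DLD1 lactate libraries HSPA6, HSPA7 and CRYAB were each highest in library 1 and lowest in library 3, an order noticed after the values were seen. CRYAB had 4.84, 3.40 and 1.68 CPM there, beside 57.5, 39.8 and 29.9 CPM for HSPA6. HSPA8 had the opposite order, at 2158, 2324 and 2471 CPM, as did HSPA4 and HSPA14, whereas HSPA13 had the order of HSPA6. HSPA7 shares sequence with HSPA6. The share of all genes with either order was not counted. DNAJC7, a J-domain co-chaperone of HSP70 and HSP90 that was also chosen after its values were seen, had the lowest Pearson's r with HSPA6 of 17563 genes, −0.92 across 12 libraries.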
